A study of Mus musculus with 12 samples.

Results

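The mRNA levels of 10 genes of the integrated stress response (ISR) were followed in RNA-Seq libraries of bone marrow–derived macrophages (BMDMs): *Atf4*, *Atf5*, *Ddit3*, *Trib3*, *Asns*, *Psat1*, *Chac1*, *Sesn2*, *Slc7a11*, and *Ppp1r15a*. They were chosen by name, as the transcription factor ATF4, its relatives ATF5 and CHOP (encoded by *Ddit3*), and amino acid and stress genes known as their targets. Earlier results of these data were known when they were chosen. They are 10 of the 43626 genes in the count files, and all 10 had enough counts to be tested.

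BMDMs are macrophages grown in culture from mouse bone marrow. The 12 libraries comprised 3 each of 4 conditions: PBS as the vehicle, the milk oligosaccharide 3′sialyllactose (3′SL, labeled HMO) at 100 μg/mL, the TLR4 agonist LPS at 10 ng/mL, and LPS together with 3′SL, each for 6 hours. These doses and times come from the study's methods, since the treatment label of the libraries describes injections of mice. The labels give neither genotype, donor, nor age of the mice, so p-values measure the spread between libraries, which may be technical. A caption of the paper calls its RNA-Seq heatmap biological duplicates that were independent and gives n = 3 for other panels. One dose and 1 time of each agent were sampled, in cultured cells.

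The ISR begins when a stress kinase (PERK, PKR, GCN2, or HRI) phosphorylates the translation initiation factor eIF2. Protein synthesis then falls in general, while the *Atf4* message is translated more, and ATF4 protein binds C/EBP-ATF response elements with a C/EBP partner and switches on genes for amino acid synthesis, amino acid uptake, and redox balance. Because ATF4 is controlled in large part at translation, its mRNA level is not a measure of its protein. In macrophages the pathway meets innate signaling, since PKR is itself an interferon-inducible kinase.

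The element through which ATF4 is known to act was searched in the promoters, because the known targets differ in whether they carry it near the start site. Both strands of the RefSeq promoter windows of GRCm38.p6, 250 bases before to 50 bases after each start, were searched for TGATGNAA and for its core form TGATGCAA, which is contained in the first. The wider motif was found in 1304 of 32851 windows (3.969%) and the core form in 294 (0.895%). Of the 10 genes, 4 had the wider motif (*Trib3*, *Asns*, *Chac1*, and *Slc7a11*), and *Chac1* and *Slc7a11* had the core form. The ER stress element, searched by its consensus, was in 39 windows (0.119%) and in 0 of the 10 genes. The sites are shown 5′ to 3′ on the strand of the gene with the motif in capitals; where the capitals begin with TT, the motif lies on the other strand.
*Chac1*, chr2:119351038-119351067, plus strand, motif at −193 from the start: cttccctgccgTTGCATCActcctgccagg
*Slc7a11*, chr3:50443661-50443690, minus strand, motif at −66: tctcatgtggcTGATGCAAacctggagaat
*Slc7a11*, chr3:50443642-50443671, minus strand, motif at −47: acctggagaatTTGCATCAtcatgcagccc
*Asns*, chr6:7693214-7693243, minus strand, motif at −23: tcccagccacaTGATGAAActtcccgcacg
*Trib3*, chr2:152344028-152344057, minus strand, motif at 14: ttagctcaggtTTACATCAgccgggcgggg
Both *Slc7a11* sites lie next to each other in opposite orientation, and the 2 stretches shown overlap. A match describes letters in this window and not a bound site, and the elements of the other 6 genes may lie elsewhere.

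Between 20411741 and 26851890 reads per library were counted on genes (median 23375851). Residuals from the condition means grouped the libraries in 3 sets, and a set held 4 libraries, 1 per condition (mean residual correlation 0.543 within and −0.33 between sets). Neither the labels nor the paper describe these sets, which were found in the counts. The libraries of each set follow one another in the order of deposit. Values are therefore listed by library set 1, 2, and 3, in that order. All 8 macrophage markers were detected, with summed levels of 17640 to 30044 CPM, which are counts relative to the TMM-scaled library size. Fibroblast markers summed to 666 to 776 CPM in set 1, 29.7 to 50.7 in set 2, and 73.4 to 122 in set 3, neutrophil markers to 139 to 1015 CPM over all libraries, and T and B cell markers to at most 0.911 CPM, with *Cd3e* and *Cd3g* at 0 counts. Endothelial markers summed to 7.38 to 14.6 CPM without LPS and 17.8 to 29.3 CPM with it. In bulk RNA, fewer cells of a type and less RNA per cell cannot be told apart. The 3′SL library of set 3 stood apart from the other libraries without LPS: it held 76.7 CPM of the heat shock gene *Hspa1b* (1.58 to 4.20 CPM in the others) and 364 CPM of the metallothionein gene *Mt2* (9.01 to 36.5 CPM). The results for 3′SL without LPS that rest on this library are thus given with and without it. Unless the sets enter the model as a block, the fits without it compare 3′SL of sets 1 and 2 with PBS of all 3 sets.

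**Figure D1:**
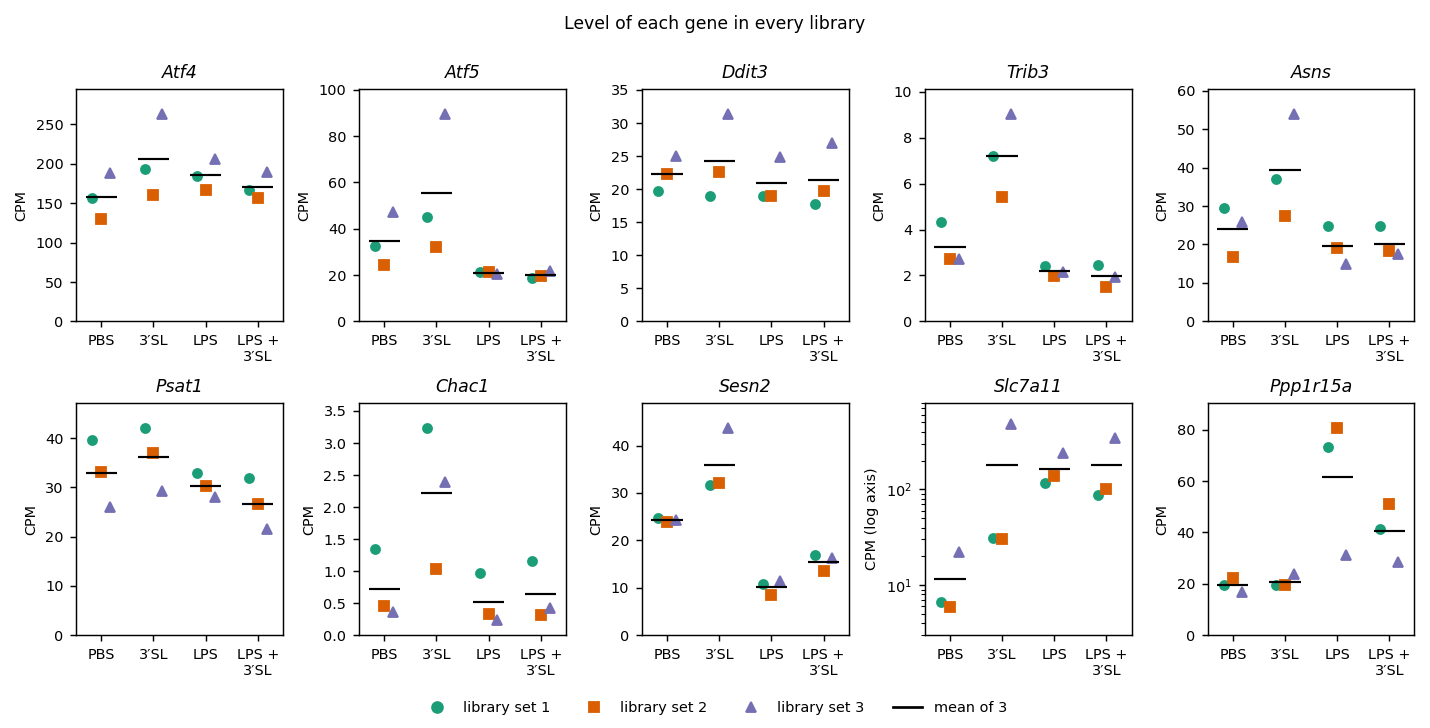
Level of each of the 10 ISR genes in every library, in CPM on a linear axis from 0 (log axis for *Slc7a11*), by condition. Symbols mark the 3 library sets and bars the mean of 3 libraries; *Sesn2* lies lower in both LPS conditions, *Slc7a11* is lowest in PBS, and the 3′SL library of set 3 is the highest of all 12 for *Atf4*, *Atf5*, *Ddit3*, *Trib3*, *Asns*, *Sesn2*, and *Slc7a11*.

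Per kilobase of exon, *Atf4* was the most abundant of the 10 mRNAs in every condition, with 67.0 ± 12.6 RPKM (SD, n = 3) in PBS, 87.2 ± 22.2 with 3′SL, 78.8 ± 8.58 with LPS, and 72.5 ± 7.04 when both were given. By its mean, *Chac1* was the least abundant in every condition, at 0.443 ± 0.331 RPKM in PBS and 1.36 ± 0.679 RPKM with 3′SL (SD, n = 3). It overlapped *Slc7a11* above it in PBS. In PBS, *Atf5* (17.4 RPKM) and *Ddit3* (13.0 RPKM) followed *Atf4* and overlapped each other. *Asns*, *Psat1*, *Sesn2*, and *Ppp1r15a* came next, between 8.77 and 6.61 RPKM, and each overlapped its neighbor in this order. *Slc7a11* stood at the ninth place in PBS, with 0.834 RPKM, and at the fourth with LPS, with 11.8 RPKM, where it overlapped *Ddit3* and *Atf5* did not overlap *Asns* below it. *Ppp1r15a* moved from the seventh place in PBS to the second in both LPS conditions, with 13.8 RPKM in LPS + 3′SL. Its values there overlapped those of the gene below it, *Ddit3* with LPS and *Slc7a11* with LPS + 3′SL.

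The first comparison asked how LPS alone moved these genes. *Slc7a11* and *Ppp1r15a* rose and *Sesn2* fell with LPS, whereas the transcription factors and the amino acid synthesis genes did not pass the test. Calls required a 1.5-fold change and an adjusted p under 0.05 (Benjamini-Hochberg) in edgeR's quasi-likelihood test across all 14308 genes tested. By this rule 3 of the 10 were called, 2 higher and 1 lower, beside 38.5% of all genes tested (18.3% higher and 20.2% lower), so the members' share lay close to the background. The groups did not overlap for 5 of the 10, against 58.4% of all genes. The fit with the sets as a block called 4 (44.6% of all genes), and DESeq2 called 2 (39.6% of all genes). Scaled by total counts, which moved the median of all genes by −0.65, 8 of the 10 were called, 2 higher and 6 lower, beside 57.3% of all genes (10.7% higher and 46.5% lower). The median log2 fold change of the 10 was −0.20, and that of all genes −0.061.

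Among the transcription factors, *Atf4* (chr15:80255184-80257541 of GRCm38, plus strand) lay at 156, 129, and 189 CPM in PBS and at 185, 166, and 207 CPM with LPS. The LPS library was higher in each set, but the groups overlapped, and the log2 fold change was 0.23 (SE 0.19, adjusted p = 0.344, edgeR). This direction depended on the scaling: scaled by total counts instead, *Atf4* was −0.42 while the median of all genes was −0.71. *Atf5* (chr7:44812256-44816658, minus strand), a related factor that acts in mitochondrial and ER stress, lay at 32.5, 24.5, and 47.4 CPM in PBS and at 21.2, 21.6, and 20.5 CPM with LPS. All LPS libraries were below all PBS libraries and close to each other, and the log2 fold change of −0.72 (SE 0.33) missed the threshold with an adjusted p of 0.0993 in edgeR. With the library sets as a block in the model, *Atf5* passed at −0.65 (adjusted p = 0.0302, edgeR). *Ddit3* (chr10:127290774-127296288, plus strand), whose product CHOP is a proapoptotic factor of prolonged ER stress, lay at 19.7, 22.3, and 25 CPM in PBS and at 18.9, 19.0, and 24.9 CPM with LPS. These groups overlapped almost fully, with a log2 fold change of −0.096 (SE 0.22, adjusted p = 0.759, edgeR). Of its exon length, 10.9% overlaps other annotated genes, among them *Mars* on the other strand, which fell with LPS (log2 fold change −1.15, adjusted p = 0.00172, edgeR). Of the *Atf5* exon length, 8.23% overlaps *Nup62* and *Il4i1* on the other strand. Whether the counting used the strand is not given in the sources used here.

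The feedback genes carried 2 of the 3 calls. *Ppp1r15a* (GADD34, chr7:45522916-45526268, minus strand) encodes the inducible subunit of the phosphatase that removes the phosphate from eIF2 and so ends the response. It lay at 19.4, 22.1, and 16.7 CPM in PBS and at 73.2, 80.7, and 31.4 CPM with LPS. The LPS libraries of sets 1 and 2 stood well above that of set 3, and all 3 were above every PBS library, for a log2 fold change of 1.67 (SE 0.32, adjusted p = 0.00142, edgeR). *Sesn2* (chr4:132492032-132510501, minus strand) encodes a sestrin, a leucine sensor that restrains mTORC1 signaling and is induced by ATF4 and by NRF2. It was the most even of the 10 genes in PBS, at 24.7, 23.9, and 24.3 CPM, and lay at 10.8, 8.43, and 11.4 CPM with LPS. The groups were far apart relative to their spread, and *Sesn2* fell by 1.25 on the log2 scale (SE 0.16, adjusted p = 1.14e-04, edgeR). *Trib3* (chr2:152337422-152344032, minus strand), a pseudokinase that binds ATF4 and CHOP and dampens their activity, lay at 4.31, 2.70, and 2.70 CPM in PBS and at 2.39, 1.99, and 2.15 CPM with LPS. The groups did not overlap, but the log2 fold change of −0.57 (SE 0.28) had an adjusted p of 0.120 in edgeR.

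The amino acid synthesis genes did not pass the test. *Asns* (asparagine synthetase, chr6:7675169-7693254, minus strand) lay at 29.5, 16.7, and 25.7 CPM in PBS and at 24.8, 19.1, and 14.9 CPM with LPS. The sets disagreed in direction, and the log2 fold change was −0.29 (SE 0.29, adjusted p = 0.451, edgeR). *Psat1* (chr19:15904678-15947337, minus strand), an enzyme of serine synthesis, lay at 39.6, 33.1, and 26.0 CPM in PBS and at 32.9, 30.3, and 28.0 CPM with LPS, with a log2 fold change of −0.11 (SE 0.19, adjusted p = 0.666, edgeR). *Psat1* was highest in set 1, the set with the most fibroblast markers, in every condition, and the part of those markers in its level was not tested.

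The cystine and glutathione genes differed widely in level. *Slc7a11* (chr3:49892526-50443614, minus strand) encodes xCT, the light chain of the cystine-glutamate exchanger that supplies cysteine for glutathione. It lay at 6.75, 5.86, and 22.2 CPM in PBS and at 117, 138, and 239 CPM with LPS. Every LPS library was above every PBS library, and the log2 fold change was 3.83 (SE 1.13, adjusted p = 0.0165, edgeR), with within-set values of 4.12, 4.56, and 3.42. Its call was lost without the PBS library of set 1 (3.55, adjusted p = 0.0612, edgeR) or of set 2 (3.51, adjusted p = 0.0636, edgeR), and DESeq2 gave it no adjusted p. *Chac1* (chr2:119351229-119354381, plus strand) encodes an enzyme that degrades glutathione. It was close to the limit of the depth, with 4 to 87 counts per library, and lay at 1.35, 0.456, and 0.371 CPM in PBS and at 0.977, 0.339, and 0.246 CPM with LPS. The LPS library was the lower one in each set, but the groups overlapped, and a log2 fold change of −0.47 (SE 0.74, adjusted p = 0.645, edgeR) was not distinguishable from no change at this depth.

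The next comparison asked what 3′SL did without LPS. All 10 genes had higher levels after 3′SL than after PBS, with log2 fold changes from 0.11 to 3.97 and a median of 0.62, where the median of all genes was 0.0013. None was called by edgeR's quasi-likelihood test after adjustment, which called 0% of all genes tested. That fit does not pair libraries by set. Its common biological coefficient of variation was 0.310, or 0.133 with the sets as a block. The absence of calls therefore describes this fit and does not show that no gene changed. The paper reports genes altered by 3′SL both with and without LPS. An unadjusted p under 0.05 was found in edgeR for 5 of the 10 (*Trib3*, *Asns*, *Chac1*, *Sesn2*, and *Slc7a11*). Of these, 4, *Sesn2* being the exception, also differed by at least 1.5-fold, against 4.33% of all genes (3.07% higher). DESeq2 called 1 of the 10, *Trib3*, beside 0.615% of all genes. It gave *Slc7a11* no adjusted p, as in every comparison, so that gene could not be called. Blocking by library set called 3 (*Trib3*, *Chac1*, and *Slc7a11*) beside 2.84% of all genes (1.98% higher), and its count was 0 to 4 over the fits lacking 1 library each. In 8 of the 10 the 3′SL library was the higher in every set, against 25.8% of all genes, and in 3 the libraries did not overlap, against 9.02% of all genes. The size of the difference depended on the set, and for all 10 genes it was highest in set 3, with median within-set log2 ratios of 0.34, 0.41, and 0.88.

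**Figure D2:**
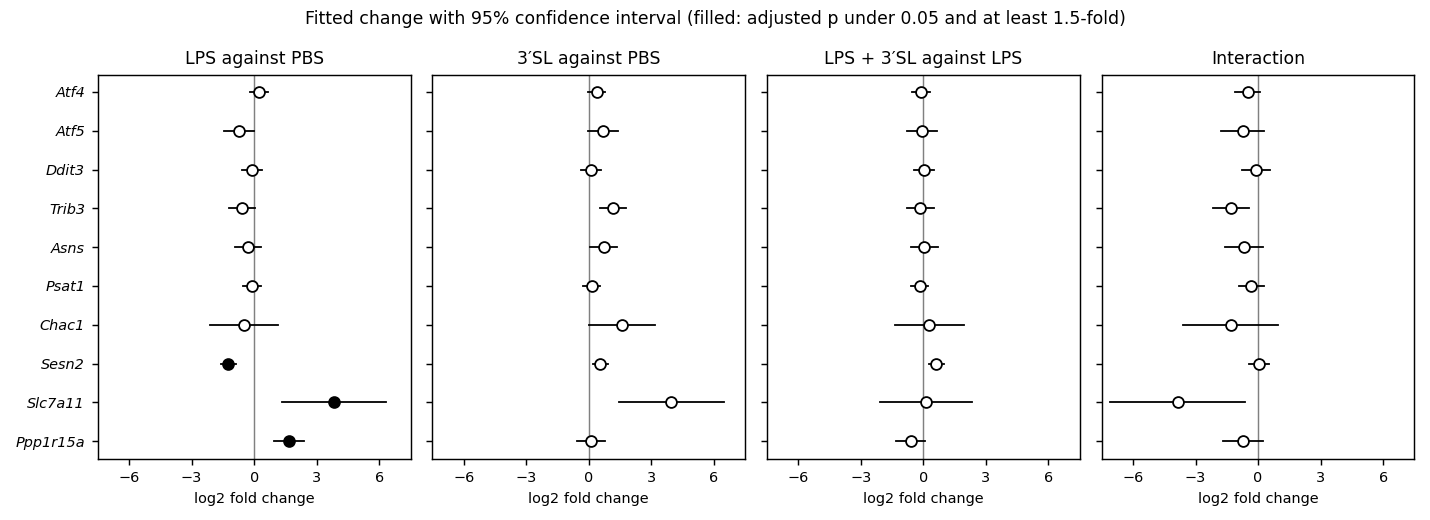
Fitted log2 fold change of each gene with its 95% confidence interval from edgeR's quasi-likelihood fit, for LPS against PBS, 3′SL against PBS, LPS + 3′SL against LPS, and the interaction of both treatments. Filled points passed both thresholds, which *Sesn2*, *Slc7a11*, and *Ppp1r15a* did for LPS against PBS; for 3′SL against PBS all 10 points lie above 0, while for LPS + 3′SL against LPS they lie on either side of it.

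*Trib3* had the lowest p of the 10 for 3′SL. It lay at 7.22, 5.41, and 9.03 CPM with 3′SL, so that each of these libraries was above all 3 PBS libraries, whose highest value was 4.31 CPM. The log2 fold change was 1.15 (SE 0.28, adjusted p = 0.262, edgeR), and the block gave 1.16 (adjusted p = 0.0127, edgeR) and DESeq2 1.17 (adjusted p = 0.0216). *Sesn2* lay at 31.7, 32.1, and 43.7 CPM with 3′SL, all above the narrow range of its PBS libraries, with a log2 fold change of 0.56 (SE 0.16, adjusted p = 0.331, edgeR). The block gave 0.55 (adjusted p = 0.0254, edgeR), which is under the 1.5-fold minimum. *Ppp1r15a*, in contrast, lay at 19.5, 19.4, and 23.8 CPM with 3′SL and overlapped PBS, with a log2 fold change of 0.11 (SE 0.31, adjusted p = 0.954, edgeR) and a 95% confidence interval of −0.58 to 0.80.

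*Slc7a11* showed the largest difference of the 10 genes and the widest spread. It lay at 31.4, 30.5, and 482 CPM with 3′SL, so that the library of set 3 held more of it than any LPS library. All 3 were above every PBS library, and the within-set log2 ratios were 2.22, 2.37, and 4.44. The log2 fold change over all libraries was 3.97 (SE 1.13, adjusted p = 0.331, edgeR), and with the block it was 3.28 (adjusted p = 0.00949, edgeR). Without the 3′SL library of set 3 it was 1.37 (SE 0.68, adjusted p = 0.882, edgeR), and 2.13 with the block (SE 0.22, adjusted p = 0.00176, edgeR), which then called this gene alone of the 10, beside 0.996% of all genes. *Chac1* lay at 3.24, 1.03, and 2.39 CPM with 3′SL. Each value was above that of the PBS library of the same set, although the groups overlapped, and the log2 fold change was 1.60 (SE 0.71, adjusted p = 0.493, edgeR) or 1.70 with the block (adjusted p = 0.0238, edgeR).

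Of the amino acid synthesis genes, *Asns* lay at 37.0, 27.4, and 53.9 CPM with 3′SL, higher than PBS within each set, with a log2 fold change of 0.72 (SE 0.29, adjusted p = 0.462, edgeR). *Psat1* lay at 42.1, 37.0, and 29.2 CPM and moved little, by 0.13 (SE 0.19, adjusted p = 0.875, edgeR). The enzymes of asparagine and serine synthesis thus had different point estimates, and the difference between them was not tested. Of the transcription factors, *Atf4* lay at 194, 160, and 263 CPM, with a log2 fold change of 0.38 (SE 0.19, adjusted p = 0.550, edgeR) and within-set ratios of 0.31, 0.31, and 0.48. These 3 ratios were the most alike among the genes with a difference above 0.3, and the block gave 0.37 (adjusted p = 0.0369, edgeR), below the 1.5-fold minimum. *Atf5* lay at 45.1, 32.1, and 89.6 CPM with 3′SL, with a log2 fold change of 0.68 (SE 0.33, adjusted p = 0.539, edgeR). *Ddit3* lay at 19.0, 22.6, and 31.4 CPM, with a log2 fold change of 0.12 (SE 0.21, adjusted p = 0.905, edgeR) and with values in sets 1 and 2 next to those of PBS.

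Leaving out the 3′SL library of set 3 kept 8 of the 10 genes higher, with a median log2 fold change of 0.30. *Ddit3* was then −0.14 and *Ppp1r15a* −0.026, and only *Trib3* had an unadjusted p under 0.05 together with a 1.5-fold change (0.93, SE 0.30, adjusted p = 0.785, edgeR). This fit does not pair libraries by set, since PBS of set 3 stayed in it. Under the block *Ddit3* was −0.0071 and *Ppp1r15a* −0.28, and *Atf4* was 0.23 against 0.13 in the unpaired fit. Without the 3′SL library of set 3 the unpaired fit gave *Atf5* 0.11, *Asns* 0.39, and *Sesn2* 0.36. With it they were 0.68, 0.72, and 0.56. Under the block without it they were 0.24, 0.33, and 0.40. *Psat1* stood at 0.24 and *Chac1* at 1.52 in the unpaired fit without it. With the block, *Trib3* stood at 0.89 without that library (adjusted p = 0.0515, edgeR) and *Chac1* at 1.23 (adjusted p = 0.106, edgeR). The same library also held the highest levels of the NRF2 targets *Nqo1* (40.8 CPM, 2.07 to 4.87 CPM in the others without LPS) and *Srxn1* (2383 CPM, 152 to 436 CPM in the others without LPS). The part of this library's heat shock, metallothionein, and NRF2 target levels in the ISR values was not tested.

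**Figure D3:**
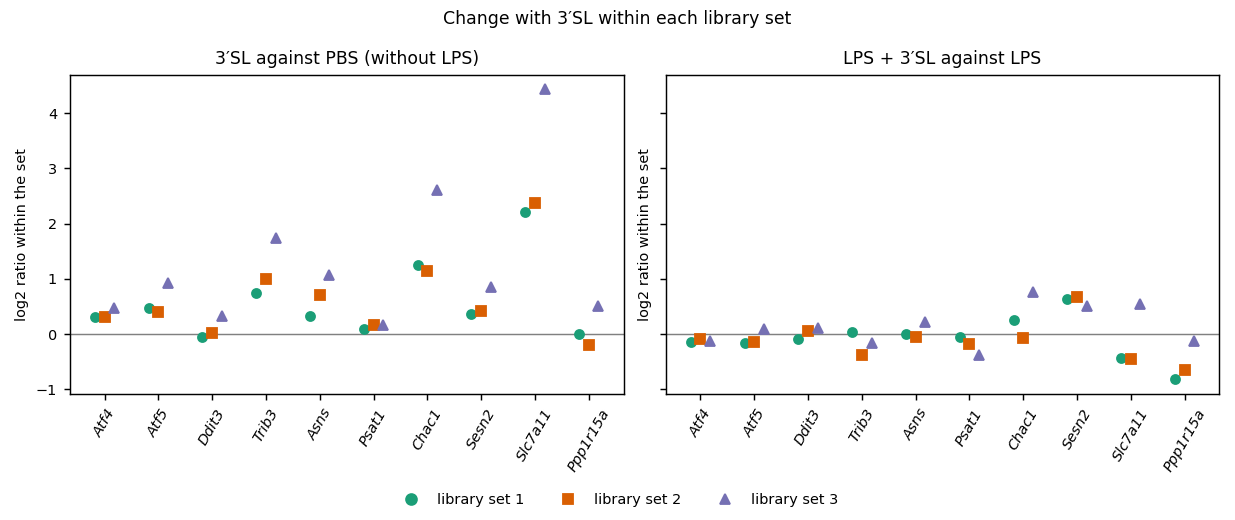
Within-set log2 ratio of CPM with 3′SL to CPM without it, for each gene, without LPS (left) and with LPS (right). Each symbol is 1 library set; without LPS the ratio of set 3 is the highest for all 10 genes, and with LPS *Sesn2* alone lies above 0 in every set, at 0.64, 0.68, and 0.50.

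With LPS present, the differences with 3′SL lay on both sides of 0, and *Sesn2* and *Ppp1r15a* showed the largest. Against LPS alone, 5 of the 10 were higher and 5 lower. Their median log2 fold change was −0.016 beside −0.0079 for all genes. Without the block, edgeR called none of them and 0% of all genes. Of the 10, 1 (*Sesn2*) had an unadjusted p under 0.05 with a 1.5-fold change, against 2.81% of all genes. The same gene was the 1 that the block called, beside 1.45% of all genes, and DESeq2 called 0 beside 0.79% of all genes. *Sesn2* lay at 16.9, 13.5, and 16.2 CPM with LPS + 3′SL, all above the LPS libraries, whose highest value was 11.4 CPM, and all below PBS. It was the 1 gene of the 10 whose libraries were all higher, against 6.24% of all genes. Its log2 fold change was 0.61 (SE 0.16, adjusted p = 0.294, edgeR), and the block gave 0.61 (adjusted p = 0.0334, edgeR) and DESeq2 0.60 (adjusted p = 0.143). The block no longer called it when any of 8 of the 12 libraries was left out: those of set 1 other than 3′SL, those of set 2 other than PBS, and both LPS libraries of set 3.

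*Ppp1r15a* showed a difference of about the same size in the other direction. It lay at 41.5, 51.3, and 28.6 CPM with LPS + 3′SL, lower than LPS within each set by log2 ratios of −0.82, −0.66, and −0.13. The groups overlapped, with both libraries of set 3 low, and the log2 fold change was −0.61 (SE 0.31, adjusted p = 0.789, edgeR). The block gave −0.58 (adjusted p = 0.270, edgeR). It called *Ppp1r15a* lower only when set 3 or the LPS library of set 3 was left out. *Slc7a11* lay at 87.4, 101, and 348 CPM, lower than LPS in sets 1 and 2 and higher in set 3. Its log2 fold change was 0.12 (SE 1.0, adjusted p = 1, edgeR) over all libraries and −0.22 with the block, so that no direction could be given. *Chac1* lay at 1.16, 0.322, and 0.429 CPM and differed by 0.28 (SE 0.75), with a 95% confidence interval of −1.38 to 1.94.

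The remaining genes differed from LPS alone by −0.19 to 0.045 on the log2 scale. *Trib3* lay at 2.47, 1.52, and 1.93 CPM with LPS + 3′SL, 1 above and 2 below the range of LPS alone, with a log2 fold change of −0.14 and a 95% confidence interval of −0.77 to 0.49. *Asns* lay at 24.8, 18.4, and 17.4 CPM (log2 fold change 0.045, 95% confidence interval −0.60 to 0.69). *Atf4* lay at 167, 157, and 189 CPM, lower than LPS alone in each set, with a log2 fold change of −0.12 and a 95% confidence interval of −0.54 to 0.30. *Atf5* lay at 18.9, 19.4, and 22.0 CPM, overlapping those with LPS alone, with a log2 fold change of −0.068 that became 0.0099 with total counts. *Ddit3* lay at 17.7, 19.7, and 26.9 CPM and *Psat1* at 31.8, 26.7, and 21.6 CPM, with log2 fold changes of 0.037 and −0.19.

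The interaction asked whether the difference with 3′SL changed when LPS was present. It was negative for 9 of the 10 genes, with a median of −0.70 beside −0.0050 for all genes. With total counts *Ddit3* turned to 0.092, while that scaling moved the median of all genes by 0.17. None of the 10 was called by edgeR, which called 0% of all genes, and 2 had an unadjusted p under 0.05 with a 1.5-fold change, against 3.96% of all genes. DESeq2 called 0 of them, beside 0.308% of all genes, and gave *Slc7a11* no adjusted p. The interaction was negative in every set for 8 of the 10, against 25.6% of all genes. *Trib3* had an interaction of −1.30 (SE 0.40, adjusted p = 0.667, edgeR), and within sets it was −0.69, −1.38, and −1.89. *Slc7a11* had −3.85 (SE 1.47, adjusted p = 0.746, edgeR), and the block called it at −3.50 (adjusted p = 0.0306, edgeR), as the 1 gene of the 10 beside 1.55% of all genes. That call was lost when any of 8 of the 12 libraries was left out, namely every PBS and LPS + 3′SL library and the LPS libraries of sets 1 and 2. Without the 3′SL library of set 3 the median interaction of the 10 was −0.38, *Trib3* was −1.07 (adjusted p = 0.981, edgeR), and *Slc7a11* was −1.26 (SE 0.91), or −2.26 with the block (adjusted p = 0.0119, edgeR). *Sesn2* was the exception, with an interaction of 0.045 (SE 0.23) and a 95% confidence interval of −0.46 to 0.55. The interaction and the other comparisons share libraries and are not independent of each other.

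The other genes of the pathway were read from lists by role, and their counts with LPS stand beside 18.3% of all genes called higher and 20.2% lower (10.7% and 46.5% by total counts). Upstream, among 20 genes for the ISR kinases, eIF2, its exchange factor, and its phosphatases, 3 rose and 3 fell with LPS (3 and 10 when scaled by total counts). *Eif2ak2* (PKR) rose by 2.94 (SE 0.23, adjusted p = 3.69e-06, edgeR) and *Ppp1r15b*, the constitutive eIF2 phosphatase subunit, by 2.29 (SE 0.25, adjusted p = 3.56e-05, edgeR). *Eif2ak3* (PERK) fell by 1.84 (SE 0.15, adjusted p = 5.09e-06, edgeR) and *Eif2ak4* (GCN2) fell by 1.48 (SE 0.17, adjusted p = 5.22e-05, edgeR). *Eif2ak2* and these kinase genes thus moved in opposite directions, and *Eif2ak1* (HRI) had means of 56.1 CPM in PBS and 54.5 CPM with LPS. *Dnajc3*, an ER cochaperone known to inhibit PERK and PKR, was higher with 3′SL without LPS (0.67, adjusted p = 0.330, edgeR, or 0.38 without the 3′SL library of set 3) and with LPS (0.64, adjusted p = 0.367, edgeR). Among 17 bZIP factors that can pair with ATF4 or share its sites, 7 rose and 2 fell with LPS (5 and 4 by total counts). *Cebpd* (2.78) and *Jdp2* (2.62) rose most, and *Cebpa* (−3.66) and *Cebpg* (−0.82), the latter a known partner of ATF4, fell (adjusted p 3.20e-06 to 3.85e-05, edgeR).

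Downstream, called amino acid genes went in both directions with LPS, and the split depended on the scaling. Of 16 tested genes of serine, glycine, one-carbon, and proline synthesis, 0 rose and 5 fell (0 and 11 by total counts), led by *Mthfd1* (−2.19, SE 0.39, adjusted p = 9.80e-04, edgeR) and *Pck2* (−1.85, SE 0.32, adjusted p = 7.56e-04, edgeR), and the median of the list was −0.79. Of 21 genes for cytosolic tRNA synthetases and tRNA export, 3 rose and 8 fell (1 and 17 by total counts). *Wars*, which is also interferon inducible, rose by 1.92 (SE 0.18, adjusted p = 9.88e-06, edgeR), and *Yars* fell by 1.01 (SE 0.15, adjusted p = 3.33e-04, edgeR). Of 14 amino acid transporter genes, 4 rose and 5 fell (2 and 7 by total counts), among them *Slc7a2*, which imports arginine (4.94, SE 0.45, adjusted p = 1.00e-05, edgeR), and *Slc38a2*, a neutral amino acid transporter known to answer to ATF4 (−1.69, SE 0.17, adjusted p = 2.02e-05, edgeR). Of 21 other ATF4 and CHOP targets, 4 rose, led by the stress regulator *Nupr1* (3.47, SE 0.36, adjusted p = 2.34e-05, edgeR) and *Gadd45b* (2.81, SE 0.20, adjusted p = 2.14e-06, edgeR), and 3 fell, led by the stress cytokine gene *Gdf15* (−1.60, SE 0.37, adjusted p = 0.00445, edgeR). By total counts 4 rose and 9 fell. Of 18 sestrin and mTORC1 input genes, 1 rose and 8 fell (0 and 15 by total counts). The sestrin genes themselves were split, since *Sesn1* fell (−2.91, SE 0.46, adjusted p = 4.39e-04, edgeR) like *Sesn2*, and *Sesn3* rose (0.82, SE 0.23, adjusted p = 0.0146, edgeR), a call that total counts did not give (0.14). Of 11 genes for mitochondrial stress, 1 rose and 3 fell (0 and 8 by total counts), and *Dele1*, which relays mitochondrial stress to the kinase HRI, fell by 1.26 (SE 0.23, adjusted p = 0.00107, edgeR).

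With 3′SL, 0 genes of these lists were called by edgeR without the block in either comparison, so values are given by direction and unadjusted p. Without LPS the block called 1 gene of the kinase list (*Dnajc3*), 3 bZIP, 2 serine and one-carbon, 3 transporter, and 2 other target genes. All of these were higher, beside 2.84% of all genes called (1.98% higher). DESeq2 called 2 transporter genes and 1 other target, beside 0.615% of all genes. Without LPS, 18 of the 21 other ATF4 and CHOP targets were higher with 3′SL (median 0.33, and 13 of 21 with a median of 0.25 by total counts), and 2 of them had an unadjusted p under 0.05 with a 1.5-fold change, where 3.07% of all genes did so in this direction. Without the 3′SL library of set 3 these were 15 of 21, a median of 0.15, and 1 gene, beside 0.955% of all genes. *Sqstm1*, which encodes the autophagy receptor p62, had the largest difference of these (1.25, SE 0.41, adjusted p = 0.385, edgeR), and it was 0.41 without that library. Among the amino acid transporters, 9 of 14 were higher (median 0.053, or −0.035 by total counts), and 5 passed the unadjusted threshold with a 1.5-fold change, whereas without that library 7 of 15 were higher (median −0.018) and 2 passed. The glycine transporter gene *Slc6a9* led these at 2.99 (SE 0.85, adjusted p = 0.331, edgeR), from levels of 0.402, 0.246, and 0.371 CPM in PBS to 2.68, 0.438, and 5.09 CPM. Its PBS levels rest on 14, 7, and 11 counts, and its difference was 2.15 without that library. The mitochondrial folate enzyme gene *Mthfd2*, a known ATF4 target, lay at 37.4, 26.5, and 37.7 CPM in PBS and at 55.1, 42.0, and 93.9 CPM with 3′SL. Its groups did not overlap, at 0.91 (SE 0.25, adjusted p = 0.327, edgeR), or 0.49 without that library, but the other genes of its list were divided, with 9 of 16 higher (median 0.11, or 0.17 without that library). The tRNA synthetase list had a median of 0.068 (−0.024 by total counts), the kinase list −0.095, the bZIP list 0.21, the sestrin and mTORC1 list −0.042, and the mitochondrial list −0.14. Without that library these were 0.0026, −0.12, −0.00088, 0.0058, and −0.13, so that the bZIP and sestrin medians changed sign. These list medians come from fits that do not pair libraries by set. With LPS present, the medians of the kinase, bZIP, amino acid, sestrin, mitochondrial, and other target lists lay between −0.19 and 0.15, or between −0.10 and 0.25 by total counts. Single genes differed more. Beside 1.45% of all genes, the block called 2 of the sestrin list, both higher (*Sesn1* at 1.0, adjusted p = 0.00148, edgeR). Of the kinase list it called 1 higher and 1 lower (the lower, *Nck1*, at −0.72, adjusted p = 0.00220, edgeR). It called 1 lower each of the bZIP, transporter (*Slc7a2*, −1.10), and other target lists (*Gadd45a*, −1.02). DESeq2 called *Nck1* alone of these (adjusted p = 0.00319).

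Glutathione and ER genes made up the last lists. With LPS alone, 3 of 13 tested genes for glutathione and cystine handling rose and 0 fell (2 and 3 by total counts), and of 18 genes for the ATF6 and XBP1 arms 0 rose and 4 fell (0 and 14 by total counts). Of the glutathione and cystine genes, several of which share NRF2 as a regulator with *Slc7a11*, 10 were higher with 3′SL without LPS, with a median of 1.42 (0.58 without the 3′SL library of set 3), and 9 passed the unadjusted threshold with a 1.5-fold change beside 3.07% of all genes, all 9 higher (3 higher and 1 lower without that library). The block called 7 of the 13, all higher, beside 2.84% of all genes (1.98% higher). DESeq2 called 2 beside 0.615%, and *Nqo1* was among the genes it gave no adjusted p. Without that library the block called 6, all higher, beside 0.996% of all genes. *Gclm*, which encodes a subunit of the enzyme that starts glutathione synthesis, lay at 94.1, 94.4, and 238 CPM in PBS and at 318, 292, and 1299 CPM with 3′SL. With LPS present the list's median difference with 3′SL was 0.26, and the median interaction was −1.24 (−0.13 without that library). Of the 18 genes for the ATF6 and XBP1 arms of the unfolded protein response, which handle protein folding in the ER beside the PERK arm that leads to ATF4, 17 were higher with 3′SL without LPS (median 0.48, and again 17 with a median of 0.36 without the 3′SL library of set 3) and 18 with LPS (median 0.44), where total counts gave 1 call, the 1 of all genes tested (0.00699%). Of these 18, 8 passed the unadjusted threshold with a 1.5-fold change without LPS and 7 with it, beside 4.33% and 2.81% of all genes. The block called 8 and 7 (2.84% and 1.45% of all genes), and DESeq2 3 and 3 (0.615% and 0.79%), all higher. Without the 3′SL library of set 3 the block called 5 without LPS, beside 0.996% of all genes. *Creld2*, an ER stress gene, lay at 34.1, 37.2, and 59.3 CPM in PBS, 66.0, 61.0, and 111 CPM with 3′SL, 29.7, 31.2, and 38.1 CPM with LPS, and 55.1, 63.9, and 79.3 CPM with LPS + 3′SL. Its log2 fold changes with 3′SL were 0.87 (SE 0.27, adjusted p = 0.358, edgeR) without LPS, or 0.51 without that library, and 1.0 (SE 0.27, adjusted p = 0.288, edgeR) with LPS. The median interaction of this list was −0.028 (0.16 by total counts, close to the 0.17 of all genes), beside −0.70 for the 10 ISR genes, and whether the lists differ was not tested.

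**Figure D4:**
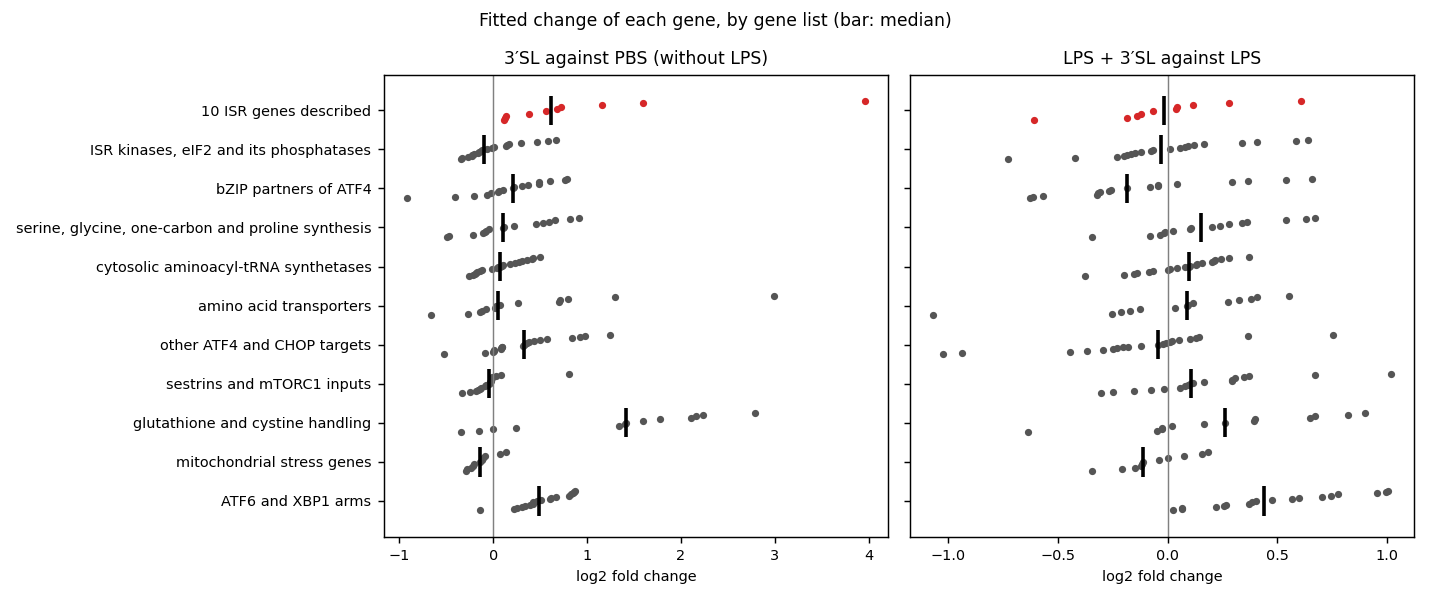
Fitted log2 fold change with 3′SL of each tested gene, without LPS (left) and with LPS (right, on a different scale), for the 10 ISR genes (red) and 10 further lists (gray); bars mark medians. The ISR genes have a median of 0.62 without LPS and −0.016 with LPS, and the ATF6 and XBP1 list 0.48 and 0.44.

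Profiles over the 12 libraries were compared by the root mean square difference of mean-centered log2 CPM. The gene closest to *Atf4* was *Eif4ebp1* (0.0957), which encodes the translation repressor 4E-BP1, followed by *Senp5* (0.104) and *Gm9774* (0.116). The gene closest to *Asns* was *Slc7a5* (0.153), which encodes the leucine transporter LAT1, followed by *Cd81* (0.157) and *Numbl* (0.225). *Slc7a11* was closest to *Hspa1b* (0.624), *Procr* (0.626), and *Mt2* (0.630), and *Trib3* to *Prkab2* (0.322). *Sesn2* was closest to *Zfp652* (0.184), *Ppp1r15a* to *Gphn* (0.248), and *Atf5* to *Zadh2* (0.210). These distances are descriptions over libraries that share sets and conditions.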

How the data were processed

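RNA-Seq was performed on BMDMs with stranded libraries of polyadenylated RNA. The deposited files hold raw counts of reads on each gene, whole numbers to which the authors applied no normalization. The submitters' processing notes name FastQC, Trimmomatic, STAR, HTSeq, and DESeq2, and their versions, the genome build, and the strand setting are not given in the sources used here. Of the alignments, 33.2% to 37.1% per library were on lines that name no gene and were left out. The libraries held 20411741 to 26851890 counts on genes, and counting error weighs most on *Chac1* (4 to 87 counts) and *Trib3* (33 to 227 counts). Gene identifiers were matched to GENCODE M21 of GRCm38 (42462 of 43626 matched), which gave names, positions, and exon lengths.

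Conditions came from the labels, and replicates of 1 condition were numbered in accession order. Replicates differed beyond sampling noise (chi-square per gene 15.6 or more) and were counted separately. Counts were analyzed in R 4.3.3 with edgeR 4.0.16: filterByExpr by condition (14308 genes), TMM factors, and a quasi-likelihood test over all 12 libraries with 1 mean per condition, with Benjamini-Hochberg adjustment over all genes tested. Within-set ratios are log2 CPM differences with a prior count of 0.5. Beside the 10 genes, each list was represented by its called genes with the largest change per direction (2 for LPS, 1 for 3′SL and the interaction), or, where none was called, by the gene with the largest change at an unadjusted p under 0.05. The genes shown for the library that stood apart, *Srxn1*, *Gclm*, *Eif2ak1*, and the markers were named after their values had been seen or for their position. So were *Mars* beside *Ddit3* and the genes that overlap *Atf5*. The members and the lists were chosen with earlier results of these data known. Alternatives were DESeq2 1.42.0, other scalings and filters, fits of only the conditions compared, the library sets as a block, and leaving out each library. The block without each set or library and the fits without the 3′SL library of set 3 were added after the data had been seen. The fit was tested on simulated data.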

Additional observations from a re-analysis of the deposited data

How the results depend on the processing

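For LPS against PBS the number of the 10 genes called was 3, and it was 8 with total counts (2 higher and 6 lower) and 9 with the library sets as a block and total counts (2 higher and 7 lower). With each library left out once, it was 2 to 4. For 3′SL against PBS the count of 0 became 1 with DESeq2, 3 with the block, 3 with the block and total counts, and 4 at the unadjusted p. For LPS + 3′SL against LPS it became 1 with the block, with or without total counts, and 1 at the unadjusted p. For the interaction it became 1 with the block, with or without total counts, and 2 at the unadjusted p. The labels carry no replicate numbers, so this replicate block rests on sets found in the counts. It called 2 genes in each of the 3′SL comparisons and the interaction without library set 3, and 0 in each without set 1 or set 2. Those called without set 3 were *Trib3* and *Slc7a11* (higher with 3′SL alone), and *Sesn2* (higher) and *Ppp1r15a* (lower) with LPS present. For the interaction they were *Slc7a11* and *Ppp1r15a*, both lower. When each library was left out of the block fit, it called 0 to 4 for 3′SL against PBS, 0 to 1 for LPS + 3′SL against LPS, and 0 to 1 for the interaction. The block's 3 calls for 3′SL became 0 without the PBS library of set 3, 1 without the 3′SL library of set 3, and 2 without the PBS library of set 1. Its call of *Sesn2* for LPS + 3′SL against LPS was present only when the left-out library was a PBS library of set 2 or 3 or a 3′SL library of set 1 or 3, and its call of *Slc7a11* for the interaction only when it was any 3′SL library or the LPS library of set 3. The cause was not tested.

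Directions turned for *Atf4* with LPS under total counts (−0.42, and −0.41 with the block), for *Atf5* with LPS + 3′SL against LPS (0.0099 and 0.00030), and for the interaction of *Ddit3* (0.092 and 0.096). *Slc7a11* with LPS + 3′SL against LPS turned to −0.22 with the block and −0.14 with the block and total counts. Leaving out 1 library gave ranges that include 0 for LPS against PBS in *Psat1* (−0.26 to 0.041) and *Chac1* (−1.30 to 0.34), and for 3′SL against PBS in *Psat1* (−0.0095 to 0.29), *Ddit3* (−0.14 to 0.27), and *Ppp1r15a* (−0.026 to 0.21). The same held for LPS + 3′SL against LPS in *Ddit3* (−0.16 to 0.18), *Slc7a11* (−0.80 to 0.48), *Asns* (−0.13 to 0.25), *Chac1* (−0.49 to 1.11), and *Trib3* (−0.34 to 0.020), and for the interaction in *Sesn2* (−0.075 to 0.25) and *Ddit3* (−0.28 to 0.18). None of these values was called by edgeR. With 3 libraries per condition and a common biological coefficient of variation of 0.310, or 0.133 with the block, small changes were not detectable.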
